A study of Mus musculus with 12 samples.

Results

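The 6 libraries described here, of 12 in the series, hold RNA of LSK and GMP cells from the bone marrow of Tet2-/-Flt3ITD mice, called T2F3 after the sample titles, with 3 libraries per population. They were chosen by the genotype and cell type in the labels and by nothing measured. The other 6 libraries are LSK and GMP of wild-type (WT) mice, 3 per population, and serve as the reference for which population differences were also found in the mutant. All mice were C57BL/6 with a donor age of 0.35 years, and the labels used here name no treatment. T2F3 mice lack Tet2 and carry an internal tandem duplication (ITD) of Flt3, and no promoter or Cre driver is named. The labels give a genotype and no disease state or blast count, so the marrow is called T2F3 here and not leukemic.

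LSK cells are marrow cells without mature lineage markers that bear Kit and Sca-1, and this fraction holds the stem cells and the multipotent progenitors. GMP cells are granulocyte-macrophage progenitors, which bear Kit, CD34 and Fc gamma receptors and make the enzymes of the first neutrophil granules. On the way from LSK to GMP, cells shut off stem cell, lymphoid and platelet lineage genes and switch on granule and myeloid receptor genes. TET2 oxidises methylcytosine in DNA, FLT3 is a receptor tyrosine kinase of early progenitors, and the ITD makes it signal without its ligand.

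The T2F3 libraries held 15978229 to 23536258 counts. The replicate 1 libraries of T2F3 had counts in 80.8% (LSK) and 80.2% (GMP) of the entries, against 88.6 to 89.8% in replicates 2 and 3. They also held more small noncoding RNA, 20.3 and 17.3% of the counts against 8.01 to 11.5%. Results are therefore also given without both of these libraries. The sort description in the labels gives LSK as Sca-1 negative, as it does GMP, whereas LSK cells are Sca-1 positive by their usual definition. Whether replicates came from separate animals is not in the labels. The p-values therefore reflect library-to-library spread, and part of it may be technical. In bulk RNA, fewer cells of a type and less RNA per cell cannot be told apart.

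In T2F3, 156 of 16042 genes tested differed between GMP and LSK at an adjusted p under 0.05 (edgeR quasi-likelihood test, Benjamini-Hochberg adjustment), which is 0.972% of the genes. Of these, 44 were higher in GMP (0.274%) and 112 lower (0.698%). For each of the 156 genes the populations did not overlap, and GMP differed from LSK in the same direction in 3 of 3 pairs of libraries with the same number. Over all genes the populations did not overlap for 15.3%. With the replicate number as a block, 194 passed in T2F3 (1.21%), 64 higher (0.399%) and 130 lower (0.81%). In WT the test without the block passed 2100 genes (13.1%), 918 higher (5.72%) and 1182 lower (7.37%).

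The T2F3 count depended on single libraries. Leaving out T2F3 GMP replicate 1, 2 or 3 gave 47, 67 and 52 genes, leaving out T2F3 LSK replicate 2 or 3 gave 96 and 61, and leaving out WT GMP replicate 1 gave 256. Without both T2F3 replicate 1 libraries it was 11 (3 higher, 8 lower). The letters of the library code in the labels, whose meaning is not given, differ between libraries. With that code as a block no T2F3 gene passed (edgeR, 748 at an unadjusted p under 0.05), and the only code that holds both T2F3 populations is that of the replicate 2 pair.

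In the fit on all 12 libraries, nearly all of the genes that passed in T2F3 had also passed in WT, and in the same direction. There were 145 such genes, 41 higher and 104 lower in GMP, which is 92.95% of the T2F3 genes and 6.905% of the WT genes. No gene passed in opposite directions. The T2F3 and WT comparisons share no library, but they share the estimate of the spread. With each genotype fitted on its own 6 libraries, 228 genes passed in T2F3, and 149 passed in both genotypes in the same direction. By limma-voom these counts were 561 and 452, so the share depended on the fit. Of the 145 genes, 105 had the smaller absolute log2 difference in T2F3. Without both T2F3 replicate 1 libraries the count of shared genes was 11. Without 1 library it was 44, 64 and 48 for T2F3 GMP replicates 1, 2 and 3, 90 and 58 for T2F3 LSK replicates 2 and 3, and 220 for WT GMP replicate 1. The remaining 1955 WT genes did not pass in T2F3, and 1737 of them had the same sign there. The difference between the T2F3 and WT effects passed its own test for 4 of the 1955, so for the other WT genes a loss of the population difference in T2F3 was not shown.

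The genes that passed in WT had smaller median population differences in T2F3. Over the 918 genes higher in WT GMP the median log2 difference was 1.33 in WT and 0.40 in T2F3. Over the 1182 genes higher in WT LSK it was -2.22 in WT and -0.86 in T2F3. The genes were picked by their WT values, so the WT medians are set by the choice, and the T2F3 medians are not. Over all genes the median absolute log2 difference was 0.59 in WT and 0.25 in T2F3. Such a median also grows with the spread between replicates, which was larger in WT (common biological coefficient of variation 0.584, against 0.384 in T2F3), and its part in these values was not tested. Across genes, which are not independent replicates, the log2 differences of the genotypes correlated at r = 0.60, and 64.0% had the same sign.

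**Figure D1:**
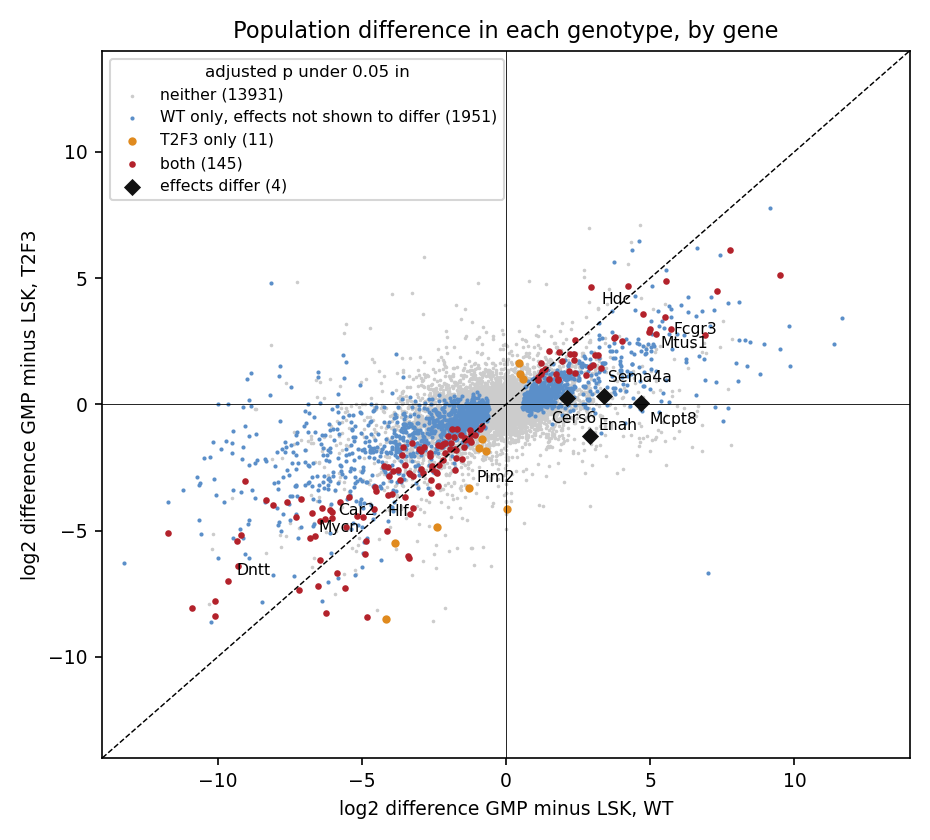
Each point is 1 of 16042 genes, with its log2 difference between GMP and LSK in WT on the x axis and in T2F3 on the y axis. Red points passed in both genotypes (145), blue and black in WT only (1955), and orange in T2F3 only (11), the black diamonds being the 4 genes whose effects differed. The dashed line marks equal differences, and 105 of the 145 red points have the smaller difference in T2F3.

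The position of each T2F3 library between the WT populations was read as the median, over these genes, of its log2 CPM (counts scaled to the TMM-adjusted library size) minus the midpoint of WT LSK and WT GMP. The genes higher in WT GMP stood at 0.41, 0.26 and 0.58 in T2F3 GMP replicates 1, 2 and 3 and at 0.11, -0.09 and -0.03 in T2F3 LSK. All GMP values were above all LSK values. The genes higher in WT LSK stood at -0.64, -0.48 and -0.62 in T2F3 GMP and at -0.04, 0.34 and 0.31 in T2F3 LSK, again without overlap. For both gene sets T2F3 LSK replicate 1 was the LSK library nearest to GMP. These positions are descriptions, with no test.

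**Figure D2:**
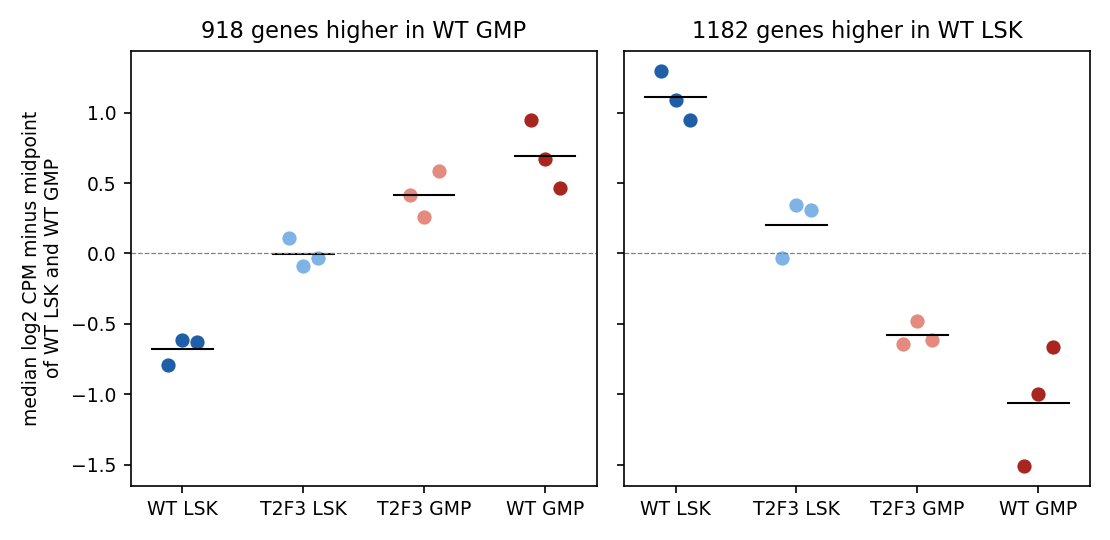
Points are libraries and bars group means, with the median log2 CPM minus the midpoint of WT LSK and WT GMP on the y axis, for the 918 genes higher in WT GMP (left) and the 1182 genes higher in WT LSK (right). The WT positions follow from the choice of genes, which places WT libraries away from the midpoint, so a comparison with them is no test. Every T2F3 LSK library lies nearer to the midpoint than every WT LSK library in both panels. On the left, T2F3 GMP replicate 3 (0.58) lies farther from it than WT GMP replicate 3 (0.46).

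Of the genes of the sort, Fcgr3 was higher and Ly6a lower in T2F3 GMP. The Ly6a direction is that of the usual LSK definition, not of the sort description in the labels, which gives both populations as Sca-1 negative. Fcgr3 (ENSMUSG00000059498), an Fc gamma receptor, was at 3.65, 3.71 and 5.56 CPM in T2F3 LSK replicates 1 to 3 and at 40.4, 24.3 and 75.9 CPM in GMP. It was 10.8-fold higher in GMP (log2 difference 3.44 ± 0.47 SE, n = 3 per population, adjusted p = 0.00389, edgeR) and 46.1-fold higher in WT, and it passed on leaving out any 1 library. Reads of Fcgr3 and of its close relative Fcgr2b may be partly shared, and Fcgr2b did not pass (adjusted p = 0.93). Ly6a (ENSMUSG00000075602), which encodes Sca-1, was at 46.6, 24.65 and 11.3 CPM in T2F3 LSK and at 6.46, 3.27 and 2.71 CPM in GMP. Every LSK library was above every GMP library, and Ly6a was 6.66-fold lower in GMP (adjusted p = 0.0387). That call was lost without T2F3 GMP replicate 1, 2 or 3, T2F3 LSK replicate 1 or 2 or WT LSK replicate 2 or 3 (adjusted p = 0.0582 to 0.194). Cd34 was at 548, 421 and 568 CPM in T2F3 LSK and at 270, 308 and 245 CPM in GMP and did not pass (adjusted p = 0.0733). Kit, at 243 to 301 CPM in LSK and 217 to 237 CPM in GMP, did not pass either (adjusted p = 1).

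Flt3 (ENSMUSG00000042817) was at 257, 330 and 188 CPM in T2F3 LSK and at 116, 166 and 72.3 CPM in GMP. The populations did not overlap, but the log2 difference of -1.13 ± 0.42 did not pass (adjusted p = 0.366). The WT libraries held Flt3 at 433, 374 and 463 CPM in LSK and at 20.8, 14.4 and 50.8 CPM in GMP (log2 difference -3.88, adjusted p = 0.000315). The difference between the genotypes' effects did not pass (adjusted p = 0.163). Tet2 (ENSMUSG00000040943) was at 42.0, 89.1 and 40.9 CPM in T2F3 LSK and at 96.3, 88.9 and 66.2 CPM in GMP (log2 difference 0.55 ± 0.28, adjusted p = 0.759). Counts over a whole gene check neither the loss of a part of Tet2 nor the ITD.

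Among the gene groups examined, stem cell genes had the highest count of T2F3 differences. All 40 genes of that list were tested, 14 were lower in T2F3 GMP, none was higher and 26 did not pass, with a median log2 difference of -1.82 against -0.02 over all genes. In WT, 31 of the 40 were lower, with a median of -3.36. With genes that had no counts in a population set to their bound (3 counts per library), the medians were -1.67 and -3.23. In T2F3, 32 of the 40 were lower in GMP in 3 of 3 pairs, against 18.7% of all genes. For this list and those below, the shares of all genes that passed were 0.274% higher and 0.698% lower in T2F3, and 5.72% and 7.37% in WT. The count of 14 was between 7 and 18 on leaving out 1 library and was 1 without both T2F3 replicate 1 libraries. The list was drawn up with earlier results of these data known, so it is no independent evidence of its direction.

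Hlf (ENSMUSG00000003949), a transcription factor of stem cells, was at 30.4, 33.4 and 52.8 CPM in T2F3 LSK and at 2.66, 3.64 and 5.65 CPM in GMP. All LSK libraries lay above all GMP libraries, and Hlf was 9.67-fold lower in GMP (log2 difference -3.27 ± 0.34, n = 3 per population, adjusted p = 0.00129, edgeR) and 23.2-fold lower in WT. Mycn (ENSMUSG00000037169), a proto-oncogene of the Myc family, was at 99.7, 96.0 and 188 CPM in LSK and at 1.33, 3.05 and 5.26 CPM in GMP, a 39.2-fold difference (adjusted p = 0.00375). Myct1, a Myc target gene, was at 20.5, 8.51 and 24.3 CPM in LSK and at 0.443, 0.966 and 1.12 CPM in GMP (20.4-fold lower, adjusted p = 0.00282).

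Nkx2-3, a homeobox factor, held 343 counts in the 3 T2F3 LSK libraries and 2 in GMP, a GMP to LSK ratio of 0.00522 after scaling (95% counting interval 0.00063 to 0.019, adjusted p = 0.00375). Such intervals cover counting error only. Hlf, Mycn, Myct1 and Nkx2-3 passed in T2F3 on leaving out any 1 library. Without both T2F3 replicate 1 libraries Hlf was at adjusted p = 0.0369, and Mycn, Myct1 and Nkx2-3 were at 0.0546, 0.0535 and 0.073.

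Other stem cell genes were lower in GMP with calls that rested on single libraries. Meis1, a partner of Hox factors, was at 63.9, 88.7 and 139 CPM in T2F3 LSK and at 29.6, 30.98 and 24.6 CPM in GMP (3.42-fold lower, adjusted p = 0.0132). That call was lost without T2F3 GMP replicate 1, 2 or 3 or T2F3 LSK replicate 3 (adjusted p = 0.0559 to 0.0775). Esam, an adhesion molecule of stem cells and endothelium, held 297 counts in LSK and 3 in GMP, a ratio of 0.00905 (0.00186 to 0.0267, adjusted p = 0.0132), and its call was lost without T2F3 GMP replicate 1 or 3 (0.0706 and 0.0796). Tgm2, a transglutaminase, was at 2.81, 3.84 and 13.2 CPM in LSK and at 0, 0.0743 and 0.155 CPM in GMP (adjusted p = 0.0138), a call lost without T2F3 GMP replicate 1, 2 or 3 (0.0688 to 0.0796). Robo4, a guidance receptor, was 24.9-fold lower (adjusted p = 0.023), but not without any 1 of the 6 T2F3 libraries (0.0506 to 0.0915) nor with the replicate number as a block (0.0739). Angpt1, a ligand of the Tie2 receptor, was at 65.1, 58.3 and 152 CPM in LSK and at 9.19, 8.36 and 17.0 CPM in GMP (adjusted p = 0.0117), Mecom, the gene of EVI1, at 4.86 to 20.7 and 0.633 to 2.82 CPM (0.0407), and Fgd5 at 11.02 to 31.3 and 0.507 to 1.66 CPM (0.0201).

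Some stem cell genes that passed in WT did not pass in T2F3, and those named here were read after their values were seen. Msi2, an RNA-binding protein, was at 108, 186 and 334 CPM in T2F3 LSK and at 60.1, 62.5 and 90.2 CPM in GMP (adjusted p = 0.0587, and 0.0385 with the replicate number as a block). Thy1, a surface glycoprotein, was at 137, 107 and 267 CPM in LSK and at 42.6, 29.9 and 114 CPM in GMP, lower in each pair (adjusted p = 0.243, and 0.0208 with the block). Lmo2, a partner of Tal1, was at adjusted p = 0.172 and at 0.0483 with the block. Sox4 was at 174 to 288 CPM in T2F3 LSK and at 143 to 253 CPM in GMP, so that the populations overlapped. Among the 18 genes tested of the Hox gene list, which also holds cofactor genes, 1 was lower in T2F3 (Meis1) and 7 were lower in WT, with medians of -0.79 and -1.87.

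**Figure D3:**
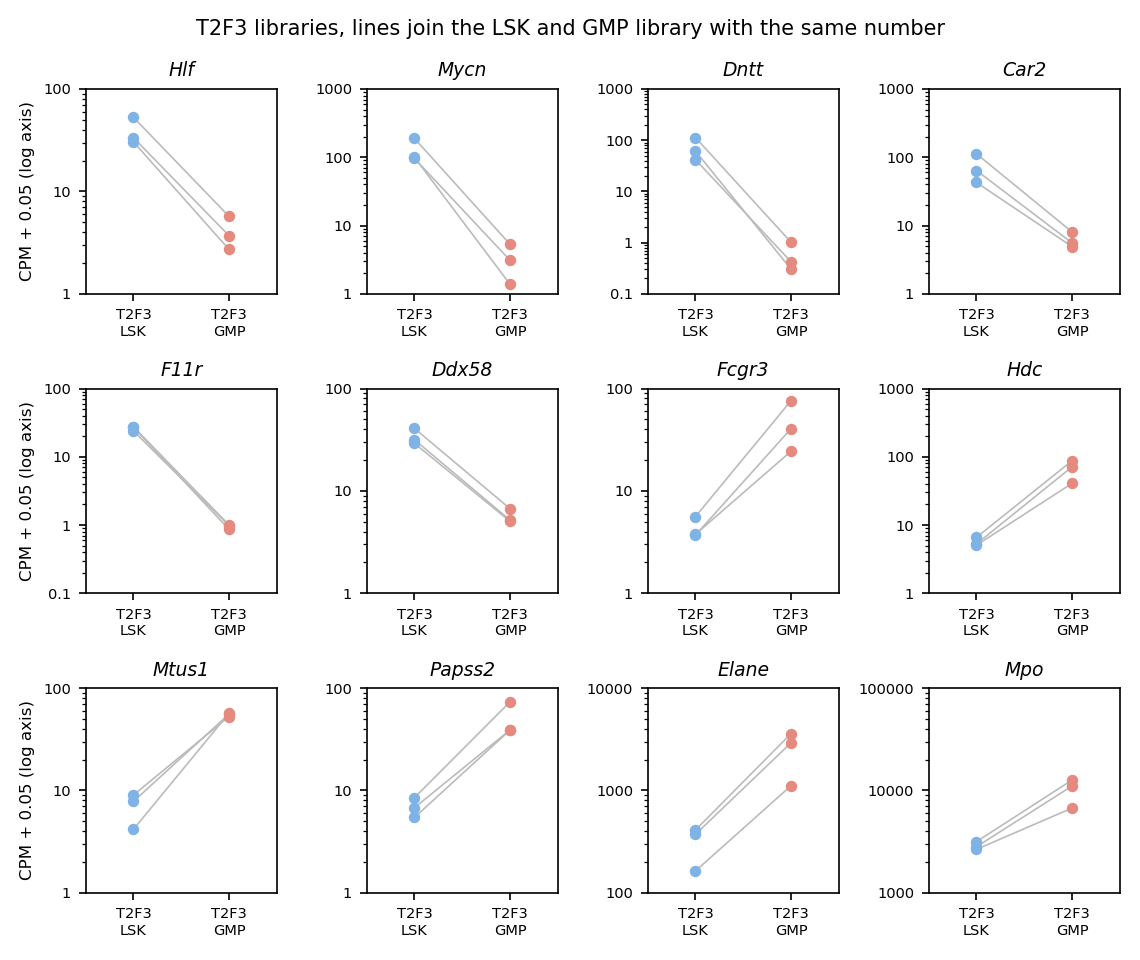
CPM plus 0.05 on a log axis for 12 genes in the T2F3 libraries, with LSK in blue, GMP in red and lines that join libraries with the same number. Hlf, Mycn, Dntt, Car2, F11r and Ddx58 are lower in every GMP library than in any LSK library, and Fcgr3, Hdc, Mtus1, Papss2, Elane and Mpo higher. Elane and Mpo did not pass the test without the replicate number as a block.

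Platelet lineage genes were lower in GMP where they passed. Of 31 megakaryocyte genes tested, 6 were lower in T2F3 GMP and none higher (10 and 1 in WT), with medians of -1.56 in T2F3 and -1.95 in WT. The 6 became 3 to 7 on leaving out 1 library and 1 without both T2F3 replicate 1 libraries. They include Gfi1b, which the stem cell list holds too. Gfi1b, a transcriptional repressor, was at 10.3, 4.55 and 10.8 CPM in LSK and at 0, 0.186 and 0.155 CPM in GMP (log2 difference -6.01 ± 0.78, adjusted p = 0.00375). Mmrn1, a platelet granule protein, was at 0.912, 2.09 and 3.58 CPM in LSK, had no counts in GMP, and was at least 15.8-fold lower there when 3 counts in each GMP library are taken as the floor (adjusted p = 0.0039). Gfi1b and Mmrn1 passed on leaving out any 1 library, and without both T2F3 replicate 1 libraries they were at 0.0546 and 0.0369. F2r, a thrombin receptor, was at 39.7, 50.8 and 212 CPM in LSK and at 6.97, 7.17 and 11.2 CPM in GMP (adjusted p = 0.0217), and its call was lost without T2F3 GMP replicate 1, 2 or 3 or T2F3 LSK replicate 3 (0.0622 to 0.136). Itga2b, an integrin of platelets and stem cells that was named after its values were seen, was at 0.0656 and passed with the block (0.0221).

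Of 35 erythroid genes, 3 were lower in T2F3 GMP and none higher, against 10 lower and 1 higher in WT, with medians of -0.17 and -1.92. Car2 (ENSMUSG00000027562), carbonic anhydrase 2, was at 63.9, 42.6 and 112 CPM in T2F3 LSK and at 5.51, 4.87 and 8.01 CPM in GMP. It was 11.9-fold lower in GMP (log2 difference -3.57 ± 0.35, n = 3 per population, adjusted p = 0.00129, edgeR) and 15.5-fold lower in WT, and it passed on leaving out any 1 library and at 0.0369 without both T2F3 replicate 1 libraries. Zfpm1, the FOG-1 cofactor of GATA factors, was 3.21-fold lower (adjusted p = 0.0129), but not with the block (0.0568), nor without T2F3 GMP replicate 2 or 3 or T2F3 LSK replicate 3 (0.0612 to 0.0748). Aqp1, a water channel, passed at 0.0487 but not with the block (0.0977), nor without any 1 library other than T2F3 GMP replicate 1 or WT GMP replicate 1 (0.055 to 0.129). With the block 1 of the 3 remained, Car2. Counts of the red cell gene Hba-a1 were low, 0 to 11 in each T2F3 library.

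Lymphoid genes were lower in GMP where they passed. Of 30 early lymphoid and B cell genes, 4 were lower in T2F3 GMP and none higher, against 19 and 1 in WT, with medians of -0.36 and -2.27, and the 4 became 1 to 4 on leaving out 1 library. Over all genes, 0.698% were lower in T2F3 and 7.37% in WT. In T2F3, 7 of the 30 were lower and 2 higher in 3 of 3 pairs, against 18.7% and 15.7% of all genes. Dntt (ENSMUSG00000025014), the terminal transferase of early lymphoid cells, was at 61.2, 41.6 and 112 CPM in T2F3 LSK and at 0.253, 0.371 and 0.967 CPM in GMP. It was 128-fold lower in GMP (log2 difference -7.00 ± 0.74, adjusted p = 0.00129) and 802-fold lower in WT, and it passed on leaving out any 1 library and at 0.0369 without both T2F3 replicate 1 libraries. Lck, a kinase of T cells, was at 34.4, 23.4 and 62.1 CPM in LSK and at 2.03, 1.19 and 3.44 CPM in GMP (adjusted p = 0.0202). The calls of Lck and of Jchain, the joining chain of antibodies (0.0274), were lost without T2F3 GMP replicate 1, 2 or 3 or T2F3 LSK replicate 3 (0.0681 to 0.12 and 0.0639 to 0.145), and that of Jchain also without T2F3 LSK replicate 2. Lax1, an adaptor of lymphocytes (0.0447), lost its call without T2F3 GMP replicate 1 or 2, any 1 T2F3 LSK library, WT GMP replicate 2 or WT LSK replicate 2 or 3 (0.0657 to 0.168).

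Of 17 T and NK cell genes 1 was lower. It was Lat, a T cell adaptor, at 28.1, 19.2 and 58.3 CPM in LSK and at 0, 0.892 and 2.63 CPM in GMP (adjusted p = 0.0337), a call lost without T2F3 GMP replicate 1 or 2, any 1 T2F3 LSK library or WT LSK replicate 2 or 3 (0.0506 to 0.142). Gata3, a factor of T cells, was at 5.92, 6.09 and 6.17 CPM in LSK and at 0, 0.334 and 0.503 CPM in GMP, without overlap (adjusted p = 0.0693). Cd28 lay the other way without overlap, at 0.076, 3.50 and 1.77 CPM in LSK and at 5.96, 5.31 and 13.8 CPM in GMP (adjusted p = 0.845). Of the 17 genes, 6 were lower and 2 higher in T2F3 GMP in 3 of 3 pairs. Defining genes of mature lymphocytes were at or near 0. Pax5 of B cells and Ncr1 of NK cells had no counts in any T2F3 library, and Cd3d of T cells had at most 4 per library.

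Azurophil granule genes, which mark GMP, had a positive median difference in both genotypes, and few passed in T2F3. Of 22 tested, 1 passed in T2F3 and 18 passed in WT, all of them higher in GMP, and the medians were 0.85 in T2F3 and 2.95 in WT, against -0.02 and 0.01 over all genes. In T2F3, 17 of the 22 were higher in GMP in 3 of 3 pairs, against 15.7% of all genes, and none was lower in all pairs. GMP lay above LSK without overlap for 11 of the 22, against 6.35% of all genes in T2F3 and 15.2% in WT. The difference between the T2F3 and WT effects did not pass for any of the 22. Clec5a, a receptor of myeloid cells, was at 3.04, 2.71 and 2.63 CPM in T2F3 LSK and at 21.7, 13.7 and 21.2 CPM in GMP (6.75-fold higher, adjusted p = 0.0123), and its call was lost without T2F3 GMP replicate 1 or 3 or T2F3 LSK replicate 2 or 3 (0.0533 to 0.0685).

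With the replicate number as a block, 8 of the 22 passed, each higher in GMP, where 0.399% of all genes were. Elane (ENSMUSG00000020125), neutrophil elastase, was at 410, 163 and 372 CPM in T2F3 LSK and at 3582, 1110 and 2915 CPM in GMP. GMP was 8.74-, 6.80- and 7.84-fold higher in pairs 1, 2 and 3, and the log2 difference was 3.01 ± 0.65 (n = 3 per population, edgeR adjusted p = 0.0508, and 0.00472 with the block). Mpo (ENSMUSG00000009350), myeloperoxidase, was at 3157, 2655 and 2814 CPM in LSK and at 12610, 6712 and 11030 CPM in GMP. It was 3.99-, 2.53- and 3.92-fold higher by pair (adjusted p = 0.0676, and 0.0256 with the block). In both genes replicate 2 was the lowest of the GMP libraries. The other genes that passed with the block were Ms4a3, a membrane protein of GMP (0.0111, against 0.0806), Alas1, an enzyme of heme synthesis (0.0161, against 0.065), Gstm1 (0.0163, against 0.205), Plac8 (0.0413, against 0.11) and Prtn3, proteinase 3, which was 3.94-, 2.90- and 3.55-fold higher by pair (0.0144, against 0.208), beside Clec5a (0.036). Ctsg, cathepsin G, was at 1131, 426 and 631 CPM in LSK and at 1431, 1010 and 1295 CPM in GMP, so that the populations overlapped (log2 difference 0.77, adjusted p = 0.733), against a log2 difference of 4.204 in WT. Gstm1, Plac8, Prtn3 and Ctsg were named after their values were seen.

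Promoters of Elane, Mpo and Hlf are shown because Elane and Mpo lay higher and Hlf lower in GMP. They are the 250 bases before the start of the gene in RefSeq, build GRCm38.p6, 5′ to 3′ on the strand of the gene, with GAGGAA, a core of the sites of the myeloid factor PU.1, in capitals where a search of both strands found it. Elane lies on the plus strand at chr10:79886062-79886311, Mpo on the plus strand at chr11:87793534-87793783 and Hlf on the minus strand at chr11:90390918-90391167.
Elane: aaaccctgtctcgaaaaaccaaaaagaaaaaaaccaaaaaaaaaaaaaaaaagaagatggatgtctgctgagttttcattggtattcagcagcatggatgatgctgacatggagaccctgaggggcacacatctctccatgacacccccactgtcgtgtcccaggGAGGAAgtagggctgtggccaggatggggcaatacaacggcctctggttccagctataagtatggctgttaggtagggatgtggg
Mpo: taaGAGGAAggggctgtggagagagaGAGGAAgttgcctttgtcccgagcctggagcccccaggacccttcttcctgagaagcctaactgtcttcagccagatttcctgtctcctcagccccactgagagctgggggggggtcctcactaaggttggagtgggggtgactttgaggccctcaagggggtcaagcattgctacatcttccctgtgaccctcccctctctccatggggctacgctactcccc
Hlf: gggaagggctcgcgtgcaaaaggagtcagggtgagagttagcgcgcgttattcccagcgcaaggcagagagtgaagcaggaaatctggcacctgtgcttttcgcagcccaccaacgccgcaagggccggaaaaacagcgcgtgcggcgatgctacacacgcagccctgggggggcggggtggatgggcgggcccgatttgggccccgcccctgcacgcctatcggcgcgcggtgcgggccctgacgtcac
Elane had 1 match, Mpo 2 and Hlf none. GAGGAA matched 8 of 18 azurophil granule promoters with a RefSeq entry (44.4%), 7 of 27 stem cell promoters (25.9%) and 23.1% of 27025 promoters in the table. TTNNGNAA, a C/EBP type motif, matched 44.4%, 40.7% and 36.9%, and AACNGN, a Myb type motif, 88.9%, 85.2% and 74.0%. The promoter of Mycn, which was lower in GMP, was searched too and is not shown. It had 0 matches to GAGGAA and 1 to TTNNGNAA, where Elane, Mpo and Hlf each had 0. AACNGN had 2 matches in Elane and 1 each in Mpo, Hlf and Mycn. The motifs were searched separately and can overlap, and a match is a description of the letters and not a bound site.

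Later granule genes, made by maturing neutrophils, gave no gene past the threshold in T2F3, where 7 of 24 were higher and 1 lower in WT. Their medians were nearly equal, 0.61 in T2F3 and 0.65 in WT. GMP was above LSK in 3 of 3 pairs for 13 of the 24 and below for 2 in T2F3, and for 11 and 2 in WT. Over all genes, 15.7% were above and 18.7% below in T2F3. Without overlap, GMP lay above LSK for 11 of the 24 in T2F3, against 6.35% of all genes. Cybb, a subunit of the phagocyte oxidase, was at 32.5, 42.2 and 12.5 CPM in T2F3 LSK and at 130, 113 and 177 CPM in GMP (log2 difference 2.27 ± 0.79, adjusted p = 0.312). S100a9, a calcium-binding protein of neutrophils, was at 0.152 to 1.03 CPM in LSK and at 1.78 to 7.54 CPM in GMP (adjusted p = 0.285). Padi4, a peptidylarginine deiminase of neutrophils, was lower in GMP in each pair, at 66.5, 51.0 and 157 CPM in LSK and at 15.2, 11.5 and 60.7 CPM in GMP (log2 difference -1.65, adjusted p = 0.423). Of the defining genes of mature neutrophils, Retnlg had no counts in any T2F3 library and Ly6g 0 to 8. Ltf, lactoferrin, had 76, 63 and 455 counts in LSK and 31, 52 and 155 in GMP (log2 difference -1.45, adjusted p = 1), and Camp, a cathelicidin, 4, 6 and 7 in LSK and 14, 18 and 28 in GMP (adjusted p = 1).

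Of 32 myeloid transcription factor genes, 1 was lower in T2F3 (Gfi1b) and none higher, against 7 higher and 4 lower in WT. Zeb2, a repressor, was at 132, 291 and 107 CPM in LSK and at 475, 539 and 579 CPM in GMP (adjusted p = 0.0587). Cebpa, a factor of granulocyte commitment, was at 102 to 134 CPM in LSK and at 147 to 248 CPM in GMP, without overlap (adjusted p = 0.255). With the block 2 were higher, Tfec (0.0385, against 0.0688) and Cebpe, a factor of granule maturation named after its values were seen (0.0319, against 0.478).

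Of 30 myeloid receptor genes, 1 was higher (Fcgr3) and 1 lower (Il1r1) in T2F3 GMP, and 22 were higher in 3 of 3 pairs, against 15.7% of all genes. In WT 13 were higher and 2 lower, and the medians were 0.78 in T2F3 and 1.13 in WT. With the block 3 were higher, Cxcr4 and Il6st beside Fcgr3 (0.0297 and 0.0299, against 0.321 and 0.221; both named after their values were seen). Il1r1, the interleukin 1 receptor, was at 37.2, 33.6 and 57.8 CPM in LSK and at 5.96, 6.61 and 11.9 CPM in GMP (adjusted p = 0.0482), a call lost without any 1 library other than WT GMP replicate 1 or 3 (0.0509 to 0.231). Clec12a, an inhibitory lectin, was at 171, 160 and 114 CPM in LSK and at 287, 325 and 409 CPM in GMP, without overlap (adjusted p = 0.0594), with a log2 difference of 1.199 in T2F3 and 3.13 in WT. Clec7a, the beta-glucan receptor, was at 9.72, 11.7 and 3.37 CPM in T2F3 LSK and at 49.0, 58.2 and 60.3 CPM in GMP (adjusted p = 0.0914).

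Monocyte and dendritic cell genes gave 2 of 39 higher in T2F3 GMP, against 10 higher and 3 lower in WT. The medians lay on the other side of 0 in T2F3, at -0.32, from WT, at 0.64. With genes without counts set to their bound the WT median was 0. GMP was above LSK in 3 of 3 T2F3 pairs for 11 of the 39 and below for 4, against 15.7% and 18.7% of all genes. Ly6c2, a surface protein of monocytes whose reads may be shared with Ly6c1, was at 194, 106 and 75.2 CPM in T2F3 LSK and at 1075, 604 and 889 CPM in GMP (6.84-fold higher, adjusted p = 0.0213). F13a1, a coagulation factor subunit of monocytes, was at 135, 147 and 22.6 CPM in LSK and at 662, 618 and 588 CPM in GMP (6.14-fold higher, adjusted p = 0.0234). The Ly6c2 call was lost without T2F3 GMP replicate 1 or 3 or T2F3 LSK replicate 2 or 3 (0.0697 to 0.112), and that of F13a1 without T2F3 GMP replicate 1, 2 or 3 or T2F3 LSK replicate 1 (0.0513 to 0.0854).

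T2F3 LSK replicates 1 and 2 were high in genes of dendritic cells and replicate 3 was low. The 12 MHC class II genes summed to 7194, 7445 and 513 CPM in T2F3 LSK and to 1569, 3460 and 1013 CPM in GMP, and none passed; the sums were 304 to 565 CPM in WT LSK and 144 to 226 CPM in WT GMP. Xcr1, a receptor of cross-presenting dendritic cells, was at 82.2, 159 and 9.79 CPM of the unadjusted library total in T2F3 LSK and at 8.08, 53.5 and 18.0 in GMP. The monocyte and dendritic list summed to 5521, 7467 and 1772 CPM in LSK and to 5057, 5947 and 4517 CPM in GMP. The part of these levels in the results was not tested.

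Genes of mast cells, basophils and eosinophils gave 3 of 23 higher and 1 lower in T2F3 GMP, against 12 and 1 in WT, with medians of 0.63 and 2.73. The 3 became 2 to 4 on leaving out 1 library. Hdc (ENSMUSG00000027360), histidine decarboxylase, which makes histamine, was at 6.53, 5.01 and 5.23 CPM in T2F3 LSK and at 87.2, 40.7 and 71.1 CPM in GMP. It was 11.9-fold higher (log2 difference 3.57 ± 0.38, n = 3 per population, adjusted p = 0.00129, edgeR) and 27.0-fold higher in WT. Prss34, a basophil protease, was at 0, 0.709 and 0.329 CPM in LSK and at 10.1, 19.9 and 4.99 CPM in GMP (log2 difference 4.88 ± 0.65, adjusted p = 0.00379, but 0.0529 by limma-voom). Both passed on leaving out any 1 library, and without both T2F3 replicate 1 libraries Hdc was at 0.0369 and Prss34 at 0.0546. Prg2, the major basic protein of eosinophils, was at 0, 0.96 and 0.37 CPM in LSK and at 6.46, 70.0 and 28.1 CPM in GMP (adjusted p = 0.0482, but 0.277 by limma-voom), a call lost without any 1 T2F3 library or WT GMP replicate 2 or 3 (0.0565 to 0.212).

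Of 14 macrophage genes 1 was higher in T2F3 GMP, against 3 higher and 1 lower in WT. It was Vcam1, an adhesion molecule, at 0.076, 0.584 and 0.0411 CPM in LSK and at 12.0, 2.53 and 5.03 CPM in GMP (adjusted p = 0.0315). That call was lost with the block (0.0654), by limma-voom (0.127) and without T2F3 GMP or LSK replicate 1 or 3 or WT LSK replicate 3 (0.0523 to 0.137). C1qa, a complement gene of macrophages, held 0 to 6 counts per T2F3 library. Trem2, a receptor of macrophages, was at 0.684, 0.375 and 0.37 CPM in LSK and at 7.6, 4.38 and 3.56 CPM in GMP, without overlap (adjusted p = 0.0647).

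Other genes higher in T2F3 GMP by the largest folds belong to no list. Mtus1, a microtubule-associated protein, was at 7.75, 8.97 and 4.12 CPM in LSK and at 55.6, 52.6 and 56.8 CPM in GMP (7.93-fold, adjusted p = 0.00523). Papss2, which makes the sulfate donor PAPS, was at 5.39, 6.72 and 8.44 CPM in LSK and at 38.7, 38.9 and 73.2 CPM in GMP (7.31-fold, adjusted p = 0.00375). Far2, a fatty acyl-CoA reductase, was at 0.152, 0.167 and 0.823 CPM in LSK and at 9.69, 5.16 and 12.6 CPM in GMP (22.6-fold, adjusted p = 0.00601). Mtus1, Papss2 and Far2 passed on leaving out any 1 library. Mgam, a maltase, passed at 0.0117 and lost its call without T2F3 LSK replicate 2 (0.0512). Mefv, the pyrin gene, passed at 0.0482 and lost its call without any 1 T2F3 library, WT GMP replicate 2 or 3 or WT LSK replicate 3 (0.0605 to 0.173).

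Among the lower genes outside the lists, Pglyrp2, a peptidoglycan amidase, was at 34.6, 24.5 and 51.8 CPM in T2F3 LSK and at 0.634, 0.334 and 1.93 CPM in GMP (37.4-fold lower, adjusted p = 0.00379). F11r, a junctional adhesion molecule, was at 27.4, 23.8 and 26.9 CPM in LSK and at 0.95, 0.929 and 0.812 CPM in GMP (28.9-fold lower, adjusted p = 0.00523). Both passed on leaving out any 1 library. Ltb, lymphotoxin beta, was at 10.2 to 10.5 CPM in LSK and at 0.0633 to 0.892 CPM in GMP (adjusted p = 0.00808), and its call was lost without T2F3 GMP replicate 3 (0.0574). Il18r1, a chain of the interleukin 18 receptor, was at 30.8, 29.8 and 64.2 CPM in LSK and at 1.52, 2.08 and 2.01 CPM in GMP (adjusted p = 0.0186), and Shank3, a scaffold protein, passed at 0.0254. Their calls were lost without T2F3 GMP replicate 1, 2 or 3 or T2F3 LSK replicate 3 (0.0801 to 0.118 and 0.059 to 0.12).

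Among the genes that passed in both genotypes with the largest differences, several were nearly absent from GMP or from LSK. Bcam, a laminin receptor, was at 4.79, 1.38 and 10.4 CPM in T2F3 LSK and at 0, 0 and 0.0387 CPM in GMP (adjusted p = 0.0129), a call lost without T2F3 GMP replicate 1, 2 or 3 (0.062 to 0.0775). Apol7e, an apolipoprotein L gene, was at 9.34, 4.5 and 5.39 CPM in LSK and at 0, 0.112 and 0.0774 CPM in GMP (adjusted p = 0.0117), and Lhcgr, the luteinizing hormone receptor, was at 0.912, 1.88 and 1.4 CPM in LSK and had no counts in GMP (0.026). Mogat2, an acyltransferase of lipid synthesis, went the other way, with 0, 0.334 and 0.123 CPM in LSK and 3.55, 3.27 and 11 CPM in GMP (0.0254). With the replicate number as a block Apol7e, Lhcgr and Mogat2 did not pass (0.0614, 0.131 and 0.0514). Without 1 library the call of Apol7e was lost for T2F3 GMP replicate 2 or 3 (0.0532 and 0.0706), that of Lhcgr for any T2F3 library but LSK replicate 1 and for WT LSK replicate 3 (0.0522 to 0.091), and that of Mogat2 for T2F3 GMP or LSK replicate 1 or 3 (0.0586 to 0.137).

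Interferon response genes had nearly the same median in both genotypes, -0.80 in T2F3 and -0.86 in WT. Of 49 tested, 1 passed in T2F3 (Ddx58, lower) and 13 in WT, all lower, where 0.698% and 7.37% of all genes were lower. In T2F3, 34 of the 49 were lower in GMP in 3 of 3 pairs, against 18.7% of all genes. Ddx58, the RNA sensor RIG-I, was at 31.5, 40.7 and 29.1 CPM in LSK and at 5.13, 6.65 and 4.99 CPM in GMP (6.03-fold lower, adjusted p = 0.00358), against 3.41-fold lower in WT, and it passed on leaving out any 1 library. With the block 3 were lower, Oas3 and Oasl2 beside Ddx58 (0.0413 and 0.036, against 0.473 and 0.163; Oas3 was named after its values were seen). Igtp, an interferon-induced GTPase, was at 88.2, 78.1 and 80.2 CPM in T2F3 LSK and at 26.2, 34.2 and 27.5 CPM in GMP, without overlap (adjusted p = 0.0897), and Irgm2, another, was at 28.9, 29.2 and 26.2 CPM in LSK and at 10.6, 18.4 and 11.6 CPM in GMP (0.145).

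Of 39 Flt3 and STAT5 signalling genes, 1 was lower in T2F3 GMP (Pim2) and 7 were lower in WT, where 0.698% and 7.37% of all genes were. In T2F3, 16 of the 39 were lower in 3 of 3 pairs, against 18.7% of all genes. Socs2, a feedback inhibitor of cytokine signalling, was at 112, 127 and 147 CPM in T2F3 LSK and at 54.5, 90.8 and 49.7 CPM in GMP, without overlap (log2 difference -0.99 ± 0.29, adjusted p = 0.166). In WT it was at 0.961 to 1.58 CPM in LSK and at most 0.0582 CPM in GMP, so the T2F3 libraries of both populations lay above all WT libraries. Cish, another such inhibitor, was at 86.4, 109 and 153 CPM in T2F3 LSK and at 43.6, 63.6 and 42.4 CPM in GMP, without overlap (adjusted p = 0.116). Bcl2l1, the survival gene of BCL-XL, was at 30.8, 25.3 and 39.7 CPM in LSK and at 14.8, 18.2 and 12.2 CPM in GMP, again without overlap (adjusted p = 0.125).

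No gene of the proliferation lists passed in T2F3 (edgeR, adjusted p under 0.05). Over all genes, 0.274% were higher and 0.698% lower in T2F3 GMP at that threshold, and 5.72% and 7.37% in WT GMP. The shares over all genes at an unadjusted p under 0.05 were 7.99% in T2F3 and 28.3% in WT. Of 47 DNA replication genes 8 were higher in WT, and of 49 mitosis genes 5 were higher and 1 lower in WT, with medians of 0.47 and 0.28 in WT and 0.00 and 0.06 in T2F3. Of 24 cell cycle inhibitor genes 4 were lower in WT and none passed in T2F3. Txnip, an inhibitor of glucose uptake, was at 174, 140 and 133 CPM in T2F3 LSK and at 97.7, 87.8 and 63.3 CPM in GMP, without overlap (log2 difference -0.85, adjusted p = 0.126), against a log2 difference of -2.36 in WT.

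Of 21 DNA methylation genes, 1 was higher in T2F3 GMP, against 3 higher and 2 lower in WT. It was Idh1, an isocitrate dehydrogenase that makes the cofactor of TET enzymes, at 41.3, 29.1 and 32.8 CPM in LSK and at 94.96, 77.3 and 88.2 CPM in GMP (2.53-fold, adjusted p = 0.0217), a call lost without T2F3 GMP replicate 1, 2 or 3 or T2F3 LSK replicate 2 or 3 (0.0562 to 0.115). Dnmt3b, a DNA methyltransferase, was at 53.0, 60.0 and 94.9 CPM in LSK and at 33.3, 27.9 and 33.8 CPM in GMP, without overlap (adjusted p = 0.0556). Tet1, another TET enzyme, was at 46.6, 62.7 and 71.8 CPM in LSK and at 36.2, 37.0 and 33.0 CPM in GMP, without overlap (adjusted p = 0.254). Of 31 adhesion genes 1 was higher (Vcam1) and 2 lower (Esam and Robo4) in T2F3 GMP. These genes are counted above too, Vcam1 in the macrophage list and Esam and Robo4 in the stem cell list.

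**Figure D4:**
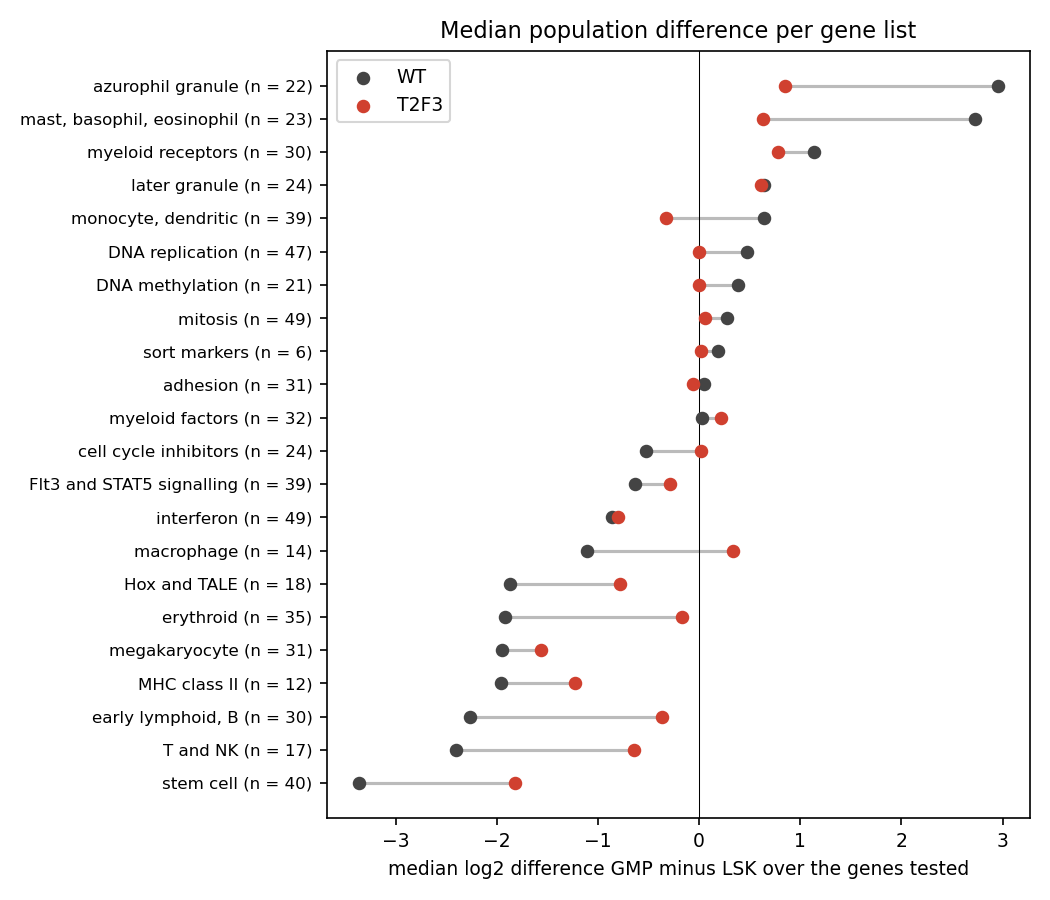
Median log2 difference between GMP and LSK over the tested genes of each list, WT in grey and T2F3 in red, with the number of genes beside the name. The stem cell genes lie at -3.36 in WT and -1.82 in T2F3, the azurophil granule genes at 2.95 and 0.85, and the interferon genes at -0.86 and -0.80.

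A small set of genes passed in T2F3 and not in WT, 11 in all. They were Gata2, Pim2, Ncam2, Lat, Camk2b, Rapgef3, Trip6, Rab38, Klf13, Rhob and AA467197, of which the last 6 and Camk2b were named after their values were seen. The difference between the effects did not pass for any of the 11, and 10 had the same sign in WT, Camk2b being the exception (log2 difference -4.16 in T2F3 and 0.02 in WT). Pim2, a survival kinase induced by STAT5, was at 59.2, 34.8 and 102 CPM in T2F3 LSK and at 9.44, 5.39 and 4.72 CPM in GMP (10.1-fold lower, adjusted p = 0.00389), against 2.46-fold lower in WT (adjusted p = 0.0611). Ncam2, a neural adhesion molecule, was at 24.8, 22.4 and 65.4 CPM in T2F3 LSK and at 0.38, 1.08 and 1.01 CPM in GMP (44.6-fold lower, adjusted p = 0.00375), and at most 0.148 CPM in any WT library. Pim2 and Ncam2 passed on leaving out any 1 library. Gata2, a factor of stem cells and mast cells, was at 16.4, 13.9 and 28.5 CPM in T2F3 LSK and at 6.398, 4.79 and 5.07 CPM in GMP (3.63-fold lower, adjusted p = 0.012), and its call was lost without T2F3 GMP replicate 2 or 3 (0.062 and 0.0697).

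The difference between the T2F3 and WT effects passed for 4 genes (0.0249% of those tested, against 9.47% at an unadjusted p under 0.05), each higher in WT GMP than in WT LSK and without such a rise in T2F3. Mcpt8, a basophil protease, was in WT LSK at 1.45, 4.09 and 7.39 CPM, and in WT GMP at 102, 119 and 111 CPM. In T2F3 it was at 23.9, 15.3 and 32.1 CPM in LSK and at 21.2, 24.2 and 28.9 CPM in GMP (edgeR adjusted p of the difference = 0.0389). Enah, an actin regulator, was at 0.148 to 0.336 CPM in WT LSK and at 1.51 to 2.56 CPM in WT GMP, and at 38.2, 45.6 and 74.0 CPM in T2F3 LSK and 17.4, 23.5 and 24.9 CPM in T2F3 GMP (0.0389). Cers6, a ceramide synthase, was at 48.4 to 53.5 CPM in WT LSK and at 209 to 239 CPM in WT GMP, and at 182 to 256 and 231 to 312 CPM in T2F3 LSK and GMP (0.047). Sema4a, a semaphorin, was at 2.97 to 6.28 and 35.7 to 62.2 CPM in WT LSK and GMP and at 49.4 to 78.0 and 57.1 to 91.6 CPM in T2F3 (0.047). For each of the 4 genes every T2F3 LSK library lay above every WT LSK library.

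None of the 4 differences passed with the replicate number as a block (0.0529 for Enah, Mcpt8 and Cers6 and 0.109 for Sema4a) or without both T2F3 replicate 1 libraries (0.273 to 0.277). The calls of Enah, Cers6 and Sema4a were lost without any 1 library other than WT GMP replicate 3 (0.0518 to 0.166), and that of Mcpt8 without any 1 library other than WT GMP replicate 3 and WT LSK replicates 1 and 3 (0.0518 to 0.165).

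**Figure D5:**
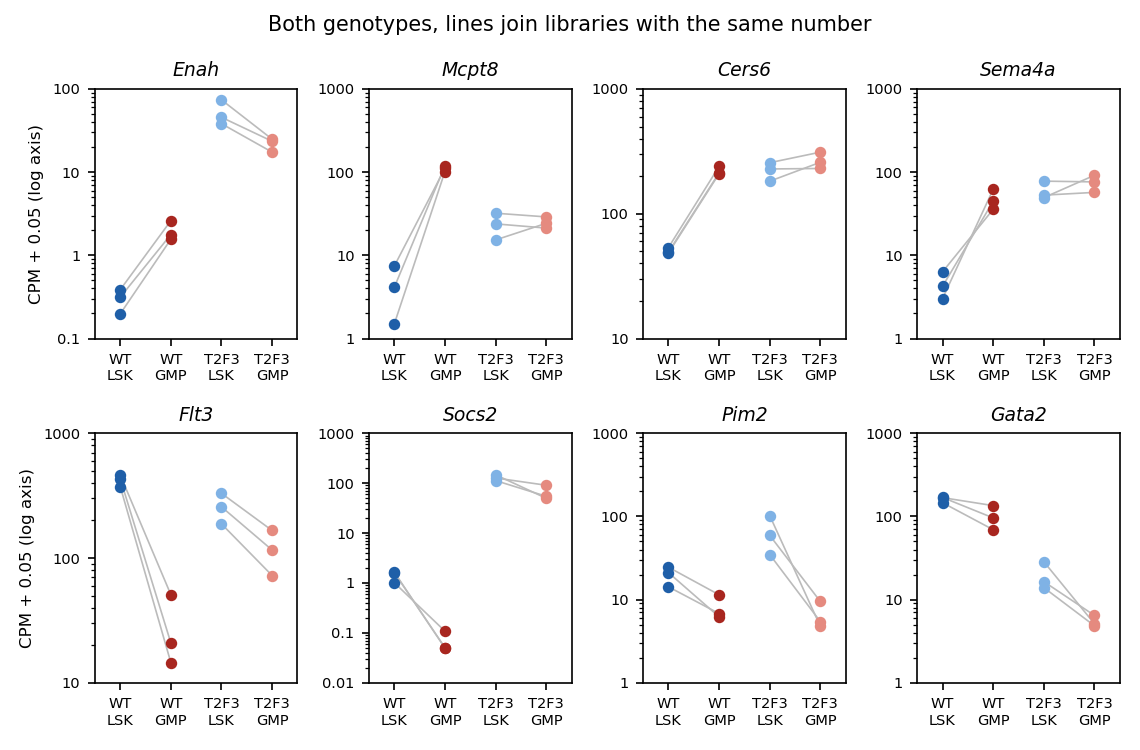
CPM plus 0.05 on a log axis for 8 genes in WT (dark) and T2F3 (light), LSK in blue and GMP in red, with lines that join libraries with the same number. For Mcpt8, Cers6 and Sema4a the T2F3 populations overlap and the WT populations do not. Pim2 and Gata2 are lower in every T2F3 GMP library than in any T2F3 LSK library.

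In all, 33 of the 156 genes passed on leaving out each of the 12 libraries in turn, 10 higher and 23 lower in GMP. Beside those described above they include Spns2, a transporter of sphingosine 1-phosphate (log2 difference -3.51, adjusted p = 0.00129), Gcnt2, a glycosyltransferase (-2.64, 0.00358), the potassium channel Kcnk5 (-2.55, 0.00358) and Pear1, a platelet receptor (-2.78, 0.00375), all lower in GMP. Chdh, choline dehydrogenase, Gpc1, a glypican, and Abcd2, a peroxisomal transporter, were higher in GMP (1.98, 2.53 and 1.94, with adjusted p = 0.00375, 0.00433 and 0.00446). These 7 were named after their values were seen, and each also passed in WT in the same direction.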

How the data were processed

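RNA of sorted marrow LSK and GMP cells was sequenced after ribosomal RNA depletion with an Ion Torrent total RNA kit, per the labels' protocols. The deposited table holds the authors' raw counts per gene for 21497 entries, of which 366 had no counts in any library. The submitters' processing notes name mm9, cutadapt 1.2rc2, TopHat2 2, BWA 0.5.9, Picard and HTSeq, and none of these sources gives the strand setting or the annotation, so overlapping and antisense genes cannot be told apart. Names came from GENCODE vM21 for 19939 IDs, and 1558 did not match. Reads of close relatives (Fcgr2b and Fcgr3, Ly6c1 and Ly6c2, the MHC class II and Ear genes) may be shared.

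Counts of all 12 libraries (13316474 to 23536258) were fitted in edgeR 4.0.16 (R 4.3.3; quasi-likelihood test, TMM scaling, filterByExpr with a minimum count of 10, 4 group means, 8 residual degrees of freedom, Benjamini-Hochberg adjustment per comparison). The contrasts were GMP minus LSK in T2F3, the same in WT, and their difference. The code was tested on simulated data. No replicates agreed within sampling noise. Alternatives used limma 3.58.1 and DESeq2 1.42.0, other filters and scalings, a replicate block and left-out libraries.

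Libraries with the same title number were taken as pairs of the populations, and the labels do not say what the numbers mark. Deviations from the group means of libraries with the same number correlated at 0.28, 0.30 and 0.41 in T2F3 and at 0.16, 0.12 and 0.15 in WT, against -0.31 to 0.08 for different numbers. Deviations within a group cancel out, so positive values for the same number lower those for different numbers. What the same-number libraries share was not tested. The libraries and the 22 gene lists were chosen with earlier results of these data known. Named genes are Tet2, Flt3, the sort markers, the 10 largest rises and falls with at least 5 CPM, up to 5 genes per list by p, 8 per direction called in both genotypes and up to 8 per direction for the difference. Exceptions are stated in the text. Some genes that the rule names are not reported here.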

Additional observations from a re-analysis of the deposited data

Results flagged for a closer look

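For 4 genes the difference between GMP and LSK was not the same in T2F3 and WT by a test of the difference itself (edgeR quasi-likelihood test, Benjamini-Hochberg adjustment). The T2F3 minus WT log2 difference was -4.16 for Enah and -4.62 for Mcpt8 (adjusted p = 0.0389 each), and -1.86 for Cers6 and -3.09 for Sema4a (0.047 each).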

How the results depend on the processing

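The T2F3 count of 156 was 0 with the library code as a block (edgeR, 748 at an unadjusted p under 0.05), 561 by limma-voom, 522 by DESeq2, 11 without both T2F3 replicate 1 libraries, 413 without both WT replicate 1 libraries and 47 to 256 on leaving out 1 library. The WT count of 2100 was 974, 3186, 3225 and, without both WT replicate 1 libraries, 1296, and it was 1188 when fitted on the WT libraries alone and 1234 to 2090 on leaving out 1 library. The count of 145 shared genes was 0, 452 and 452 in the first 3 of these, 11 and 318 without both replicate 1 libraries of T2F3 or WT, and 44 to 220 on leaving out 1 library. The 4 genes whose effects differed became 7 with a filter of 5 CPM in 3 libraries, 10 with a covariate for the share of small noncoding RNA, 23 by limma-voom, 191 by DESeq2, 1 without both WT replicate 1 libraries and 0 to 10 on leaving out 1 library, and 0 with the replicate number as a block (1858 unadjusted), with the library code as a block (641) and without both T2F3 replicate 1 libraries (882). With the replicate number as a block the T2F3 count was 194, of which 125 were among the 156, and the shared count 175. Fitted on the 6 T2F3 libraries alone, 228 genes passed, of which 119 were among the 156, and of the genes named here the calls of Ly6a, Shank3, Lat, F13a1, Vcam1, Lax1 and Aqp1 were lost (0.0521 to 0.177). The shared count was 149 with each genotype fitted alone. RLE scaling, reduced library sizes and no filter gave T2F3 counts of 147, 153 and 148, and no scaling or filter tried moved the T2F3 median by 0.1 or more on the log2 scale. RLE scaling split the WT genes into 795 higher and 1300 lower. None of the named genes that passed changed sign under the alternatives run. The calls of differing effects, 0 higher and 4 lower, split into 12 and 11 by limma-voom, 116 and 75 by DESeq2 and 1 and 0 without T2F3 GMP replicate 3. With 1 sample left out, fits of a group with 2 libraries rest on the shared spread.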
